A study of Bos taurus with 29 samples.

Results

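The classical interferon tau response genes examined here were ISG15, MX1, MX2, OAS1X, OAS1Y, RSAD2, IFI6, IFI27, IFI44 and IFI44L, taken by name from a gene count table of bovine corpus luteum. All 10 were found among the 19112 genes of the table, and all 10 passed the filter on low counts with 18939 genes in total. The corpus luteum is the ovarian gland that secretes progesterone after ovulation. Its samples came in 4 groups, named here as in the labels. CM_EE was read as corpus luteum exposed to medium conditioned by endometrial explants cultured with no embryo. In CM_EE_AI the explants had been cultured with 1 day 7 embryo produced in vivo, and in CM_EE_IVF with 1 day 7 embryo produced in vitro. NC was taken as the control, and its sample titles carry the term DMEN, which the labels do not explain. All 4 groups share Bos taurus tissue of slaughterhouse origin, from which polyA RNA was sequenced. CM was read as conditioned medium, which the labels do not spell out, and they give no culture time or dose of medium. Every group had 3 columns in the table, numbered R4, R5 and R2, each used as 1 library. The labels list 20 corpus luteum samples, with a pair of samples for each R4 and R5 column, and whether such a column holds 1 of the pair or both is not stated.

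Interferon tau is the type I interferon that the trophectoderm of the ruminant conceptus secretes before implantation. It binds the IFNAR1 and IFNAR2 receptor chains, and the kinases JAK1 and TYK2 then activate transcription factors that switch on interferon-stimulated genes. Such genes are known to rise in the endometrium, the circulating leukocytes and the corpus luteum of pregnant ruminants, and interferon tau is known for preventing the regression of the corpus luteum. The question the design puts to these genes is whether medium from explants, with or without an embryo, changes their RNA in luteal tissue.

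The 12 libraries held 16536797 to 25747637 counts over genes, with R4 the shallowest at 16536797 to 22702830. The 10 genes had 21 to 6868 counts per library, so that the lowest values, those of MX2, carried the widest counting error. Levels are given in CPM, counts scaled to a common library size with TMM factors, and are not divided by gene length, so they are compared between libraries and not between genes. Luteal steroidogenic markers were present in every library, with HSD3B1 at 423 to 2470 CPM, CYP11A1 at 177 to 1103 CPM and STAR at 138 to 986 CPM. Mitochondrially encoded transcripts took 44.4% to 48.9% of counts in R4, 54.8% to 64.0% in R5 and 49.5% to 55.9% in R2. The labels do not say that libraries came from separate animals, so p-values measure only the spread between these samples. In bulk tissue, fewer cells of a type and less RNA per cell cannot be told apart. MX1 and MX2, OAS1X and OAS1Y, and IFI44 and IFI44L are paralogs that lie next to each other in the bovine RefSeq annotation (ARS-UCD2.0), so reads shared within a pair may have been split or lost, and the single values of a pair are uncertain to that degree.

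The 10 genes differed between the conditioned media and NC within the spread of the libraries. That spread includes the differences between R numbers, which the main model did not hold. Relative to NC, 0 of 10 passed an adjusted p of 0.05 in edgeR's quasi-likelihood test for any of the 3 media, where 0 of 18939 genes (0%) passed. The levels of most genes instead separated by R number, with R4 highest and R2 lowest in most groups. ISG15 did not keep this order across groups, and R5 exceeded R4 for IFI27 in NC and for MX2 and RSAD2 in CM_EE_AI. The plot of levels in all libraries shows both features.

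**Figure D1:**
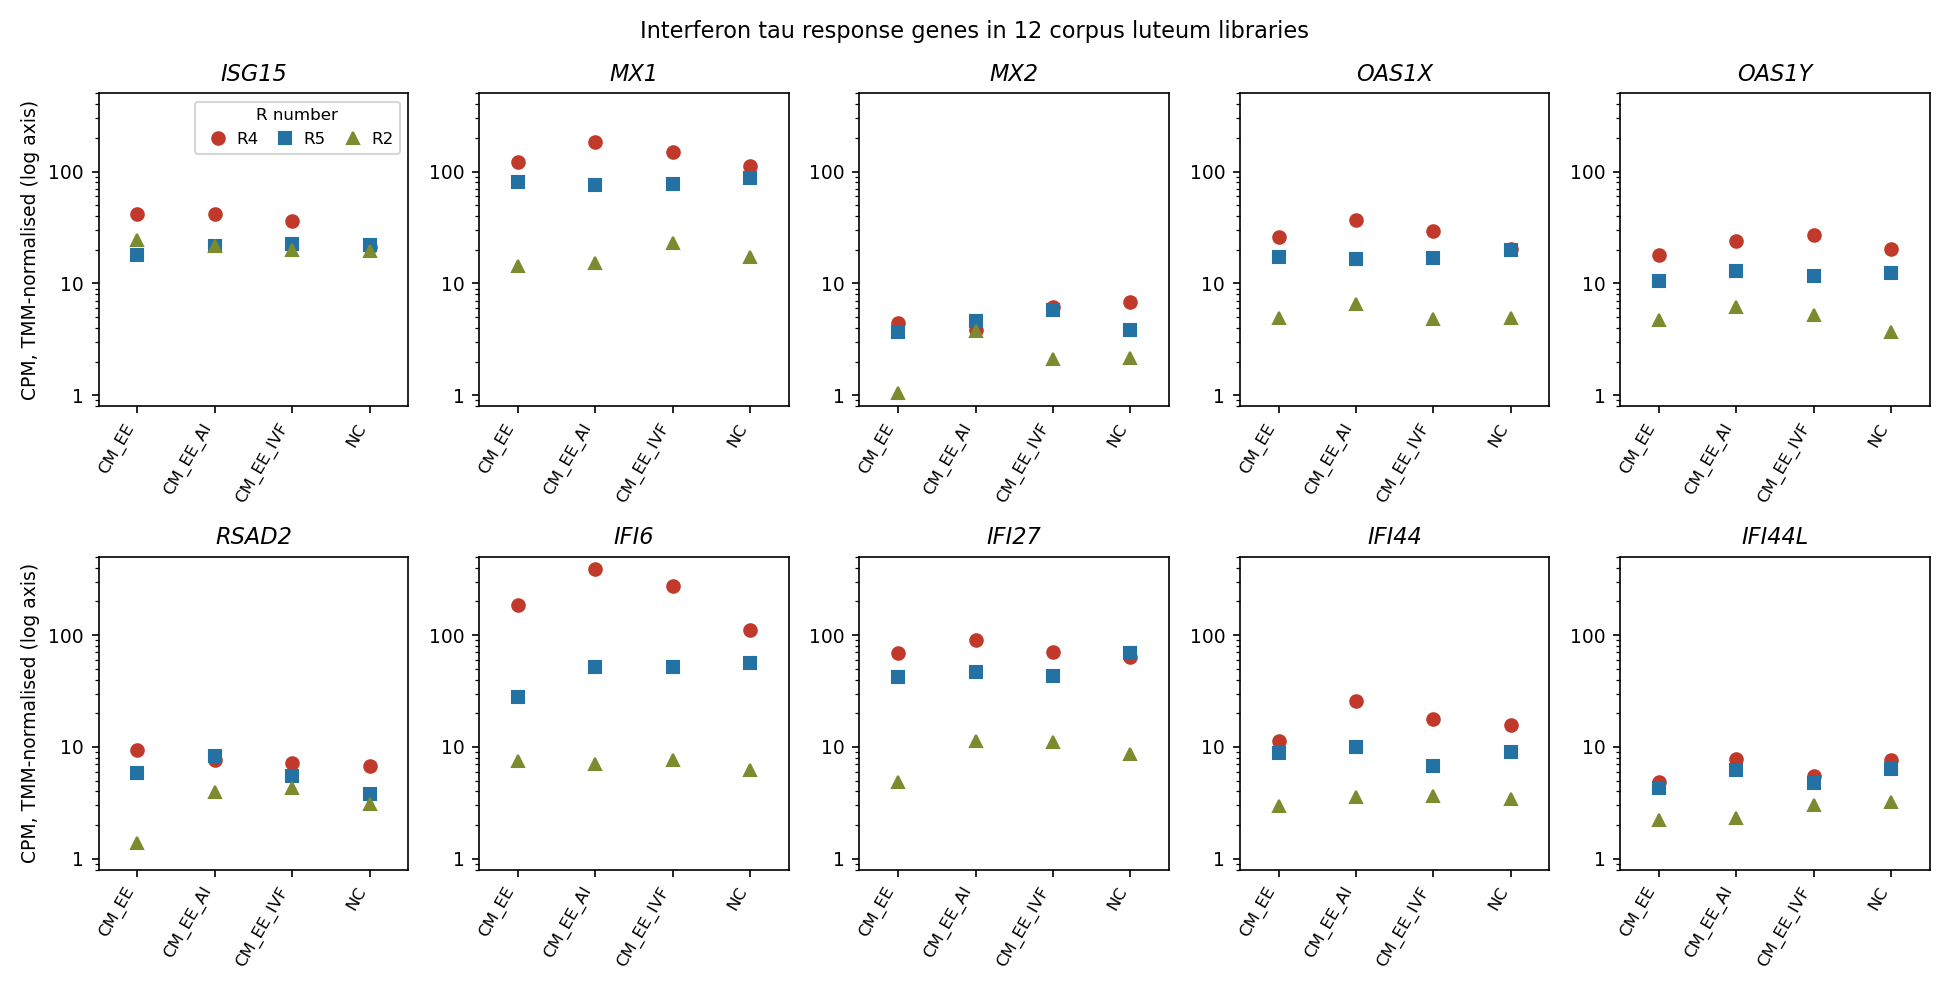
Level of each of the 10 genes in the 12 corpus luteum libraries, in CPM on a log axis, by group (horizontal axis) and R number (red circles R4, blue squares R5, green triangles R2); each point is 1 library. The colours separate for IFI6, with 111 to 388 CPM in R4 and 6.17 to 7.56 CPM in R2, while the 4 groups overlap in all 10 panels.

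ISG15, a ubiquitin-like protein that is joined to other proteins during the interferon response, is the classical marker of pregnancy recognition in ruminant endometrium. Its level was 41.8, 17.8 and 24.6 CPM in R4, R5 and R2 of CM_EE, and 41.6, 21.6 and 21.6 CPM in those of CM_EE_AI. In CM_EE_IVF it was 36.5, 22.5 and 19.8 CPM, against 21.1, 21.9 and 19.3 CPM in NC. The 3 high values were the R4 libraries of the 3 media, and the other 9 libraries, all of NC included, lay close together. The log2 fold change over NC was 0.44 for CM_EE (95% interval -0.38 to 1.25), 0.45 for CM_EE_AI (-0.37 to 1.26) and 0.34 for CM_EE_IVF (-0.47 to 1.15), each with an adjusted p of 1. Medium of explants with an in vivo embryo differed little from medium without one, with 28.2 ± 11.5 CPM in CM_EE_AI and 28.1 ± 12.3 CPM in CM_EE (SD, n = 3 each), a log2 difference of 0.01 (-0.80 to 0.82).

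MX1 and MX2 encode dynamin-like GTPases that block viruses. MX1 reached 123, 80.9 and 14.3 CPM in R4, R5 and R2 of CM_EE, 183, 76.6 and 15.1 CPM in CM_EE_AI and 151, 77.9 and 23.0 CPM in CM_EE_IVF, against 113, 87.9 and 17.2 CPM in NC. The 4 R4 libraries were high, the 4 R2 libraries low, and the groups overlapped throughout. The log2 fold changes of MX1 over NC were 0.00 for CM_EE (95% interval -2.05 to 2.05), 0.34 for CM_EE_AI (-1.72 to 2.39) and 0.21 for CM_EE_IVF (-1.84 to 2.27). MX2 averaged 3.06 ± 1.78 CPM in CM_EE, 4.07 ± 0.447 CPM in CM_EE_AI, 4.67 ± 2.21 CPM in CM_EE_IVF and 4.28 ± 2.38 CPM in NC.

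OAS1X and OAS1Y are bovine oligoadenylate synthetases, which sense double-stranded RNA and make the messenger that activates RNase L. OAS1X averaged 16.1 ± 10.7 CPM in CM_EE, 20.0 ± 15.4 CPM in CM_EE_AI, 17.1 ± 12.3 CPM in CM_EE_IVF and 14.9 ± 8.69 CPM in NC. OAS1Y averaged 11.1 ± 6.74, 14.4 ± 9.10 and 14.6 ± 11.2 CPM in the same 3 media and 12.1 ± 8.25 CPM in NC. For both genes the SD within a group exceeded the differences between group means. RSAD2 encodes viperin, a radical SAM enzyme that halts viral replication. Its level in R4, R5 and R2 was 9.37, 5.89 and 1.39 CPM in CM_EE, 7.70, 8.26 and 3.95 CPM in CM_EE_AI and 7.15, 5.52 and 4.29 CPM in CM_EE_IVF, against 6.76, 3.82 and 3.11 CPM in NC. Compared with the NC library of the same R number, RSAD2 was higher in 2 of 3 libraries of CM_EE and in 3 of 3 of each embryo medium, with log2 fold changes of 0.28, 0.54 and 0.31 that did not pass the test.

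IFI6 and IFI27 encode small hydrophobic interferon-induced proteins, which in human cells act on mitochondria and cell survival. IFI6 varied most between libraries. It had 187, 27.7 and 7.47 CPM in R4, R5 and R2 of CM_EE, 388, 51.4 and 7.09 CPM in CM_EE_AI and 277, 52.4 and 7.56 CPM in CM_EE_IVF, against 111, 56.4 and 6.17 CPM in NC. R4 was the highest library in each group. The 3 media lay above the NC library of the same number in R4 and R2 and below it in R5. The largest fold change among the 10 genes over NC was that of IFI6 in CM_EE_AI, 1.36 on the log2 scale with an interval of -1.88 to 4.61. With the R number added to the model it was 0.59 (-0.14 to 1.32). IFI27 averaged 38.9 ± 32.5 CPM in CM_EE, 49.6 ± 39.6 CPM in CM_EE_AI, 41.8 ± 30.2 CPM in CM_EE_IVF and 47.0 ± 33.3 CPM in NC, and its groups overlapped.

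IFI44 and IFI44L are cytoplasmic proteins of the interferon response. IFI44 in R4 had 11.4 CPM in CM_EE, 25.9 CPM in CM_EE_AI and 17.6 CPM in CM_EE_IVF, against 15.8 CPM in NC. In R2 it had 2.94, 3.54 and 3.61 CPM in the same media, against 3.41 CPM in NC, and in R5 the 4 libraries averaged 8.63 ± 1.39 CPM. The groups overlapped, with the widest spread among the R4 libraries. IFI44L was the gene whose values most often lay below the control: it exceeded the NC library of the same R number in 0 of 3 libraries of CM_EE, 1 of 3 of CM_EE_AI and 0 of 3 of CM_EE_IVF. Its log2 fold change was -0.61 for CM_EE (95% interval -1.69 to 0.47), -0.09 for CM_EE_AI and -0.38 for CM_EE_IVF, none of which passed the test.

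Seen as a group over NC, the 10 genes had a median log2 fold change of -0.06 in CM_EE, with 5 of 10 above 0, where the median of all genes was -0.03 and 46.3% lay above 0. In CM_EE_AI the median was 0.38 with 8 of 10 above 0, against 0.03 and 53.1% for all genes. In CM_EE_IVF it was 0.20 with 7 of 10 above 0, against -0.04 and 45.9%. The 10 genes share libraries and move together, so these counts are not independent of each other, and the 3 comparisons share the NC libraries. At an unadjusted p under 0.05, 0 of the 10 passed for any medium, where 142 (0.750%), 213 (1.12%) and 281 (1.48%) of all genes did for CM_EE, CM_EE_AI and CM_EE_IVF. These shares lie below the 5% that chance alone gives, in a model that counts differences between R numbers as spread. With the R number added to the model, 1, 0 and 0 of the 10 did, where 1.57%, 3.59% and 4.31% of all genes did. DESeq2 also called 0 of the 10. A test of any difference among the 4 groups called 0 of 10 genes and 0% of all genes, and 0 of 10 at an unadjusted p under 0.05, where 0.908% of all genes reached it. The ranges of the libraries overlapped for all 10 genes in each comparison, whereas 2.69%, 3.93% and 5.73% of all genes had separate ranges for the 3 media over NC in the same order. Each median took both signs when single libraries were left out. In those runs the R numbers no longer balanced between groups, and the cause of the sign changes was not tested.

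**Figure D2:**
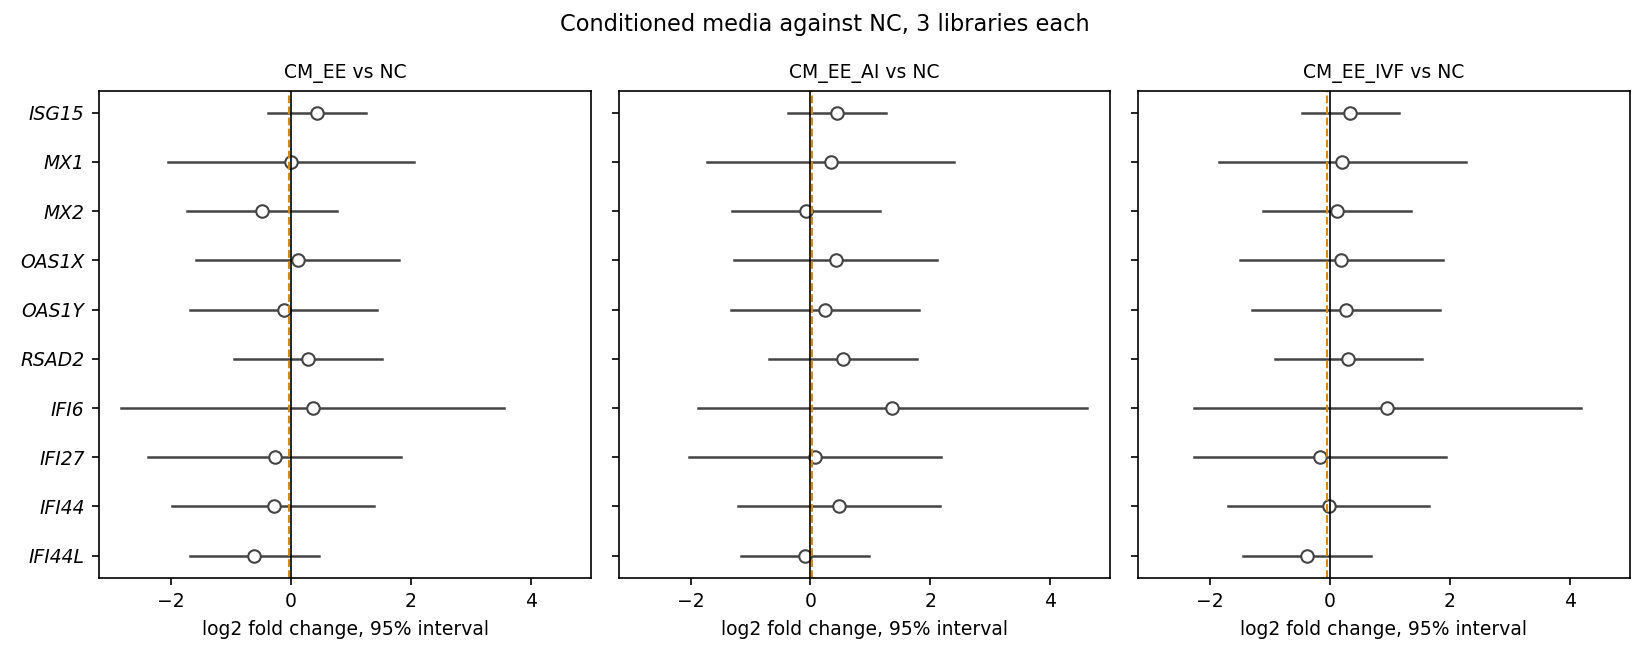
Log2 fold change of each gene (rows) in CM_EE, CM_EE_AI and CM_EE_IVF over NC, 3 libraries per group, with 95% intervals as lines; open circles did not pass an adjusted p of 0.05 and the dashed line is the median of all genes. Every interval crosses 0 in this model without the R number. The widest belong to IFI6, for which the point over NC in CM_EE_AI is 1.36.

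Medium of explants with an embryo was next set against medium of explants without one. For CM_EE_AI over CM_EE all 10 genes had a log2 fold change above 0, with a median of 0.36, where all genes had a median of 0.06 with 56.1% above 0. IFI6 had 1.01 (95% interval -2.21 to 4.23) and IFI44 0.77 (-0.92 to 2.46). With the R number added to the model, IFI6 had 0.66 (-0.07 to 1.38) and IFI44 0.56 (0.01 to 1.10). Both then had an adjusted p of 0.992 in edgeR. For CM_EE_IVF over CM_EE the median was 0.22 with 9 of 10 genes above 0, against -0.02 and 47.6% for all genes. The mean of both embryo media over CM_EE gave a median of 0.32 with 9 of 10 above 0, against 0.01 and 51.6% for all genes. Ranges of libraries overlapped for all 10 genes, where 3.34% of all genes had separate ranges for CM_EE_AI and 5.60% for CM_EE_IVF. None of these comparisons passed the test: 0 of 10 genes had an adjusted p under 0.05, as did 0 of 18939 (0%), and 0 of 10 had an unadjusted p under 0.05, where 242 genes (1.28%), 285 (1.50%) and 318 (1.68%) did for CM_EE_AI, CM_EE_IVF and their mean. Leaving out single libraries, so that R numbers no longer balanced, moved the median between -0.31 and 0.88 for CM_EE_AI over CM_EE and between -0.47 and 0.75 for CM_EE_IVF over CM_EE. Within R4, R5 and R2, with 1 library each and no test, it was 0.45, 0.28 and 0.33 for CM_EE_AI over CM_EE. All genes had 0.01, 0.12 and 0.04 there. For CM_EE_IVF over CM_EE it was 0.24, 0.08 and 0.36, against 0.01, 0.08 and -0.05 for all genes.

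The embryo media differed from CM_EE by the same sign in each R number for some genes and not for others. IFI27, IFI44, IFI44L and OAS1Y were higher in CM_EE_AI than in CM_EE in 3 of 3 R numbers, and ISG15 in 1 of 3. IFI27 had 90.4, 47.0 and 11.3 CPM in R4, R5 and R2 of CM_EE_AI, against 69.8, 41.9 and 4.88 CPM in CM_EE, so its difference was widest in R2 on the log2 scale at 1.21. In CM_EE_IVF, MX2, OAS1Y, IFI6, IFI27 and IFI44L were higher in 3 of 3. MX2 and RSAD2 in R2 gave the largest of these differences, with 3.77 CPM in CM_EE_AI and 1.05 CPM in CM_EE for MX2, and 3.95 CPM in CM_EE_AI and 1.39 CPM in CM_EE for RSAD2. The lower value of both pairs came from the same library, CM_EE R2, in which MX2 had 21 counts. Between the embryo types, CM_EE_IVF over CM_EE_AI, 2 of 10 genes were above 0 with a median of -0.23, against -0.07 and 37.8% for all genes. All 10 ranges overlapped, where 2.32% of all genes had separate ranges. Again 0 of 10 passed, where 0% of all genes did, and 0 of 10 had an unadjusted p under 0.05, where 127 genes (0.671%) did. The median lay between -0.82 and 0.49 with single libraries left out, when the R numbers no longer balance between groups.

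Set side by side within 1 R number, each with 1 library per group and therefore no test, the media differed from NC by unlike amounts and signs in R4, R5 and R2. This comparison was chosen after the values had been seen. In R4 the median log2 difference of the 10 genes from NC was 0.13 for CM_EE, 0.60 for CM_EE_AI and 0.29 for CM_EE_IVF, against -0.01, 0.02 and 0.04 for all genes. In R5 it was -0.21, -0.04 and -0.14, and in R2 -0.24, 0.27 and 0.19. ISG15 in R4 was 0.99 above NC in CM_EE, 0.98 in CM_EE_AI and 0.79 in CM_EE_IVF, while in R5 it was -0.30, -0.02 and 0.04 and in R2 0.35, 0.16 and 0.04. IFI6 in R4 was 0.75, 1.81 and 1.32 above NC in the same media, while in R5 it was -1.03, -0.13 and -0.11 and in R2 0.28, 0.20 and 0.29.

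Whether the response to the media depended on the R number was tested as an interaction. It was called for 0 of 10 genes and 0.0106% of all genes, and at an unadjusted p under 0.05 for 2 of 10, ISG15 and IFI6, where 6.39% of all genes reached that level. Both had an adjusted p of 0.718 in edgeR. The test rests on a single NC library per R number, takes the 3 media as replicates of each other and was chosen after the values had been seen.

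**Figure D3:**
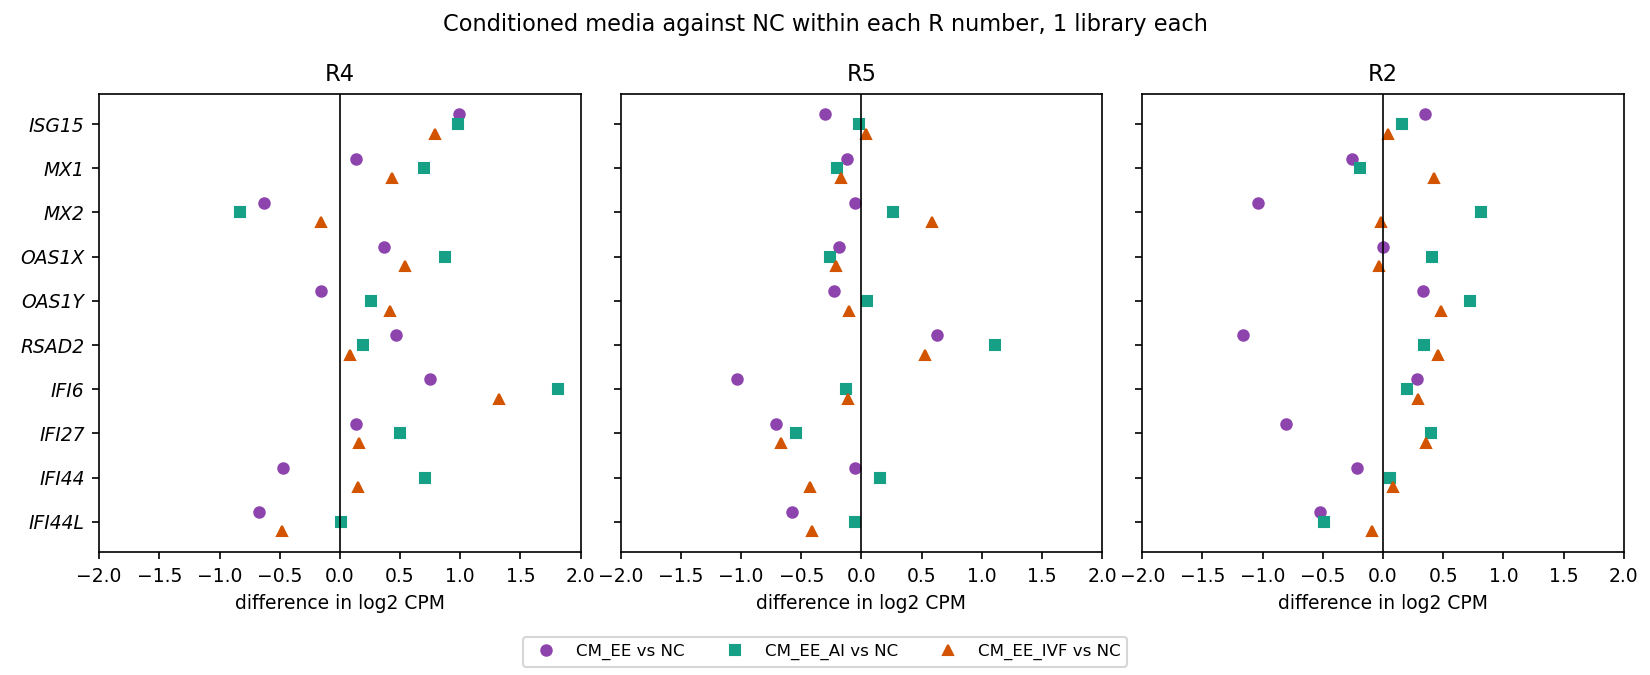
Difference in log2 CPM of each gene (rows) from the NC library of the same R number, for CM_EE (purple circles), CM_EE_AI (green squares) and CM_EE_IVF (orange triangles), 1 library each, in R4, R5 and R2 (panels). ISG15 lies at 0.79 to 0.99 in R4 and near 0 in R5, and IFI6 reaches 1.81 in R4.

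All 10 genes differed among the R numbers. In a model with group and R number, 10 of 10 had an adjusted p under 0.05 for R4, R5 and R2, where 26.7% of all genes did. With any 1 library left out, 7 to 9 of 10 passed, where 3374 to 5141 of 19046 to 19101 genes did. R4 was higher than R2 for 10 of 10 genes, where 8.72% of all genes were higher. R5 was higher than R2 for 8 of 10, where 11.5% were, and R4 was higher than R5 for 6 of 10, where 8.67% were. The median log2 fold change of the 10 genes was 2.26 for R4 over R2, 1.32 for R5 over R2 and 0.68 for R4 over R5, against 0.04, 0.08 and -0.08 for all genes. The labels do not say what an R number stands for. Each group has 1 column for each number, the titles of R4 and R5 come in pairs and those of R2 follow another pattern, so a separate run and the number R2 cannot be told apart.

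Of the 10 genes IFI6 had the widest fold between R numbers. It averaged 241 ± 119 CPM in R4, 47.0 ± 13.0 CPM in R5 and 7.07 ± 0.636 CPM in R2 (SD, n = 4 each), a log2 fold change of R4 over R2 of 4.99 (95% interval 4.26 to 5.72, adjusted p = 8.92e-06 in edgeR). By its p over the R numbers it ranked 22 among all 18939 genes. The ratio of means was 34.0 for R4 over R2, 6.64 for R5 over R2 and 5.12 for R4 over R5, and no library of 1 number overlapped those of another.

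MX1 averaged 142 ± 31.7 CPM in R4, 80.8 ± 5.01 CPM in R5 and 17.4 ± 3.93 CPM in R2, with a log2 fold change of R4 over R2 of 3.04 (2.60 to 3.47, adjusted p = 8.67e-06 in edgeR) and a rank of 37. IFI27 averaged 73.8 ± 11.5, 50.1 ± 12.4 and 8.95 ± 2.98 CPM in R4, R5 and R2, and its R4 over R2 change of 3.08 passed (adjusted p = 1.85e-05 in edgeR). For both genes R2 was set off from the other numbers: the mean of R5 over that of R2 was 4.65 for MX1 and 5.60 for IFI27. R4 exceeded R5 by 0.80 on the log2 scale for MX1 (adjusted p = 0.0141 in edgeR) and by 0.57 for IFI27, which did not pass (adjusted p = 0.111 in edgeR).

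The oligoadenylate synthetases and IFI44 fell in a middle tier. OAS1X averaged 28.1 ± 6.92 CPM in R4, 17.6 ± 1.42 CPM in R5 and 5.30 ± 0.836 CPM in R2, OAS1Y 22.3 ± 3.94, 11.9 ± 0.993 and 4.92 ± 0.997 CPM, and IFI44 17.7 ± 6.07, 8.63 ± 1.39 and 3.38 ± 0.303 CPM. Their log2 fold changes of R4 over R2 were 2.40, 2.18 and 2.34, with adjusted p of 2.63e-05, 3.13e-05 and 5.88e-05 in edgeR. In these genes R4, R5 and R2 did not overlap, and R4 also passed against R5, by 0.64, 0.90 and 0.99 on the log2 scale. The OAS1X call of R4 over R5 was lost in 8 of the 17 alternative settings, that of MX1 in 2 and that of IFI44 in 1, while those of OAS1Y and IFI6 held in all.

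MX2, RSAD2, IFI44L and ISG15 differed least. MX2 averaged 5.32 ± 1.41 CPM in R4, 4.46 ± 0.941 CPM in R5 and 2.27 ± 1.12 CPM in R2, RSAD2 7.75 ± 1.15, 5.87 ± 1.83 and 3.19 ± 1.29 CPM, and IFI44L 6.44 ± 1.50, 5.40 ± 1.03 and 2.69 ± 0.497 CPM. Their R4 over R2 changes on the log2 scale were 1.30, 1.32 and 1.24, with adjusted p of 0.0256, 0.0181 and 0.00438 in edgeR. The MX2 call was lost in 8 of 17 alternatives and the RSAD2 call in 4. Against R2, R5 passed for IFI44L (0.99, adjusted p = 0.0101 in edgeR, lost in 5 of 17) and for MX2 (1.03, adjusted p = 0.0492 in edgeR, lost in 13 of 17), and missed for RSAD2 (0.88, adjusted p = 0.0775 in edgeR).

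ISG15 kept another order than the rest. It averaged 35.2 ± 9.75 CPM in R4, 20.9 ± 2.13 CPM in R5 and 21.3 ± 2.41 CPM in R2, so that R5 and R2 did not differ beyond their spread (log2 fold change -0.01, 95% interval -0.44 to 0.42, adjusted p = 0.98 in edgeR). R4 exceeded R2 by 0.70 on the log2 scale (adjusted p = 0.0349 in edgeR) and R5 by 0.71 (adjusted p = 0.0327 in edgeR). The ISG15 difference of R4 over R2 lost its call in 13 of 17 alternatives, at 0.55 to 0.90, and that of R4 over R5 in 6 of 17. The NC library of R4, with 21.1 CPM, lay within the range of R5 and R2, and the 3 media libraries of R4 made up the difference.

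**Figure D4:**
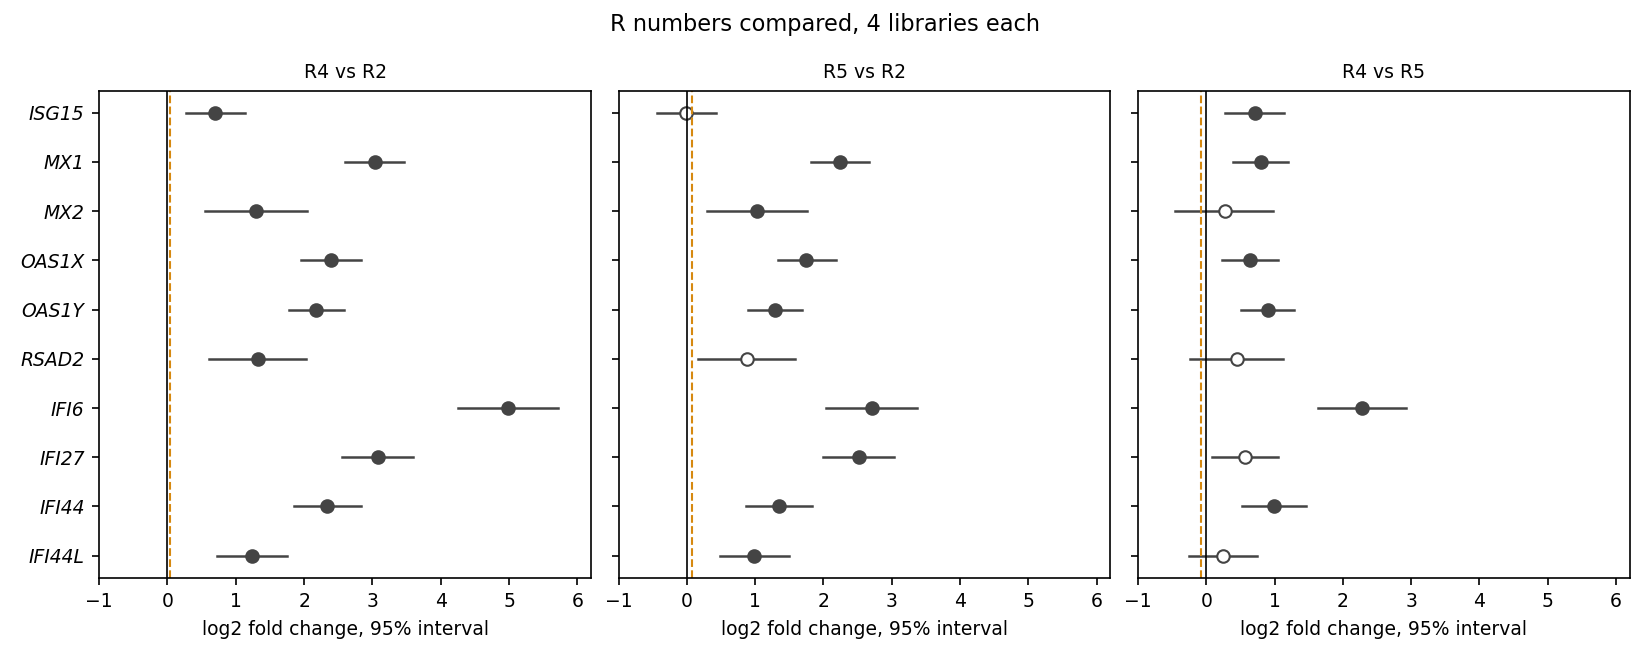
Log2 fold change of each gene (rows) for R4 over R2, R5 over R2 and R4 over R5, 4 libraries per number, with 95% intervals as lines; filled circles passed an adjusted p of 0.05, open circles did not, and the dashed line is the median of all genes. IFI6 stands farthest out at 4.99 for R4 over R2, and ISG15 sits at -0.01 for R5 over R2.

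Without overlap between libraries, 9 of 10 genes were higher in R4 than in R2, where 10.9% of all genes were, and ISG15 was the exception. The same held for 7 of 10 in R5 over R2, where 17.4% were, and for 5 of 10 in R4 over R5, where 11.5% were. Summed over the 10 genes, the level was 386 to 809 CPM in R4, 219 to 290 CPM in R5 and 68.5 to 84.4 CPM in R2. By group the sum averaged 261 ± 217 CPM in CM_EE, 382 ± 380 CPM in CM_EE_AI and 320 ± 280 CPM in CM_EE_IVF, against 249 ± 161 CPM in NC, with overlapping groups. Leaving out the R5 library of CM_EE_AI brought the number of genes higher in R4 than in R5 to 2 of 10, and leaving out that of CM_EE_IVF brought it to 3 of 10. Calls over all genes in either direction fell as well, from 2698 of 18939 to 1214 of 19076 and 1809 of 19062.

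The 10 genes also varied together from library to library. Over the 12 libraries, as a description of points that share R numbers and depth, Pearson's r of log2 CPM was 0.23 to 0.98 for the 45 pairs, with a median of 0.83. MX1 and OAS1X had 0.98, OAS1X and OAS1Y 0.97, and MX1 and MX2 0.76. ISG15 stood apart here too, with a median of 0.55 over its 9 pairs against 0.89 over the 36 pairs without it, and its lowest r was with MX2 at 0.23. Once each R number was centred on its own mean, the 45 pairs ranged from -0.40 to 0.79 with a median of 0.33, so most of the shared variation lay between R numbers.

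Other genes were ranked by their correlation with the mean standardised level of the 10, over the same 12 libraries. Among genes of the interferon lists the closest were RTP4, a chaperone-like protein that restrains interferon responses (r = 0.953), EPSTI1 (0.942), PARP14 (0.932), OAS2 (0.926) and GBP5 (0.921). RTP4 averaged 4.66 CPM in R4, 3.69 CPM in R5 and 1.22 CPM in R2. Outside those lists PRUNE2 (0.988), the prolactin receptor gene PRLR (0.980), the fatty acid desaturase gene FADS2 (0.977), VAMP5 (0.975) and TMEM150C (0.975) came closer. PRLR averaged 121 CPM in R4, 38.4 CPM in R5 and 8.37 CPM in R2, the order of the 10 genes other than ISG15. Of 14992 genes with a mean of at least 1 CPM, 30 had an r at or above that of RTP4.

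The other genes of the pathway were followed through 5 lists with 84 genes tested in all. For the media, 0 of 84 passed in each of the 6 comparisons of groups, as did 0% of all genes. Between R numbers, 28 of 84 were higher and 3 lower in R4 than in R2, with a median log2 fold change of 0.43. Of all genes, 13.6% passed there in either direction and 8.72% were higher. In R5 over R2, 21 were higher and 10 lower, where 20.8% of all genes passed and 11.5% were higher. In R4 over R5, 13 were higher and 2 lower, where 14.2% of all genes passed and 8.67% were higher. The 10 response genes thus stood at a median of 2.26 where the wider pathway stood at 0.43, as the plot of the lists shows.

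**Figure D5:**
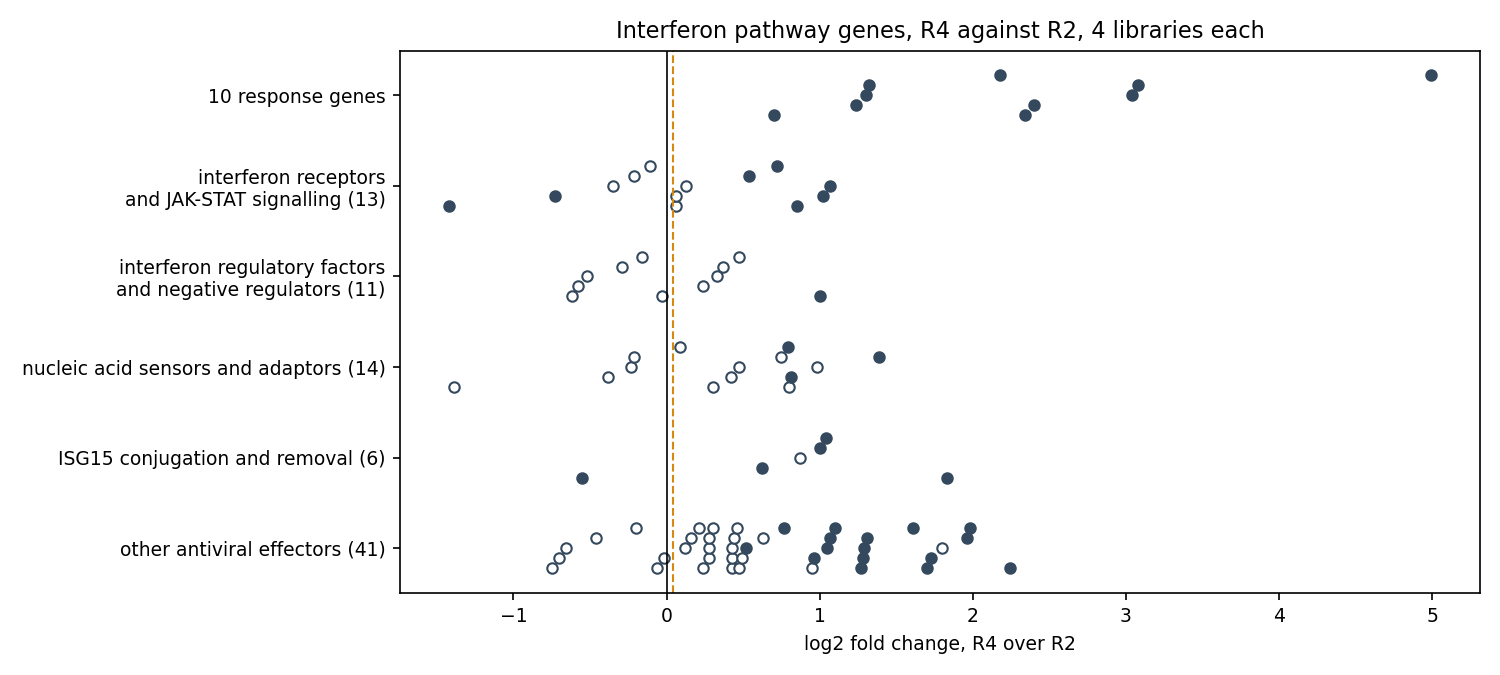
Log2 fold change of R4 over R2 for single genes (points) of the 10 response genes and of 5 interferon pathway lists, with the number of genes tested in brackets; filled points passed an adjusted p of 0.05, open points did not, and the dashed line is the median of all genes. IFNAR1, at -1.42, is the lowest point of the receptor list, and the response genes extend to 4.99.

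Receptors and JAK-STAT signalling genes moved in both directions between the numbers: 5 of 13 were higher and 2 lower in R4 than in R2. Of all genes, 8.72% were higher and 13.6% passed in either direction. IFNAR1, the receptor chain on which all type I interferons act, had 42.6 to 64.2 CPM in R4 and 27.8 to 32.9 CPM in R5, against 121 to 179 CPM in R2. It was thus highest in R2, where the response genes other than ISG15 were lowest. Its log2 fold change was -1.42 for R4 over R2 (adjusted p = 3.20e-04 in edgeR) and -2.17 for R5 over R2 (adjusted p = 1.72e-05 in edgeR). The kinase gene JAK1 had 195 to 299 CPM in R4 and 108 to 138 CPM in R5, against 373 to 529 CPM in R2, and also passed (-0.73 and -1.74). STAT2 and IRF9, parts of the factor that binds interferon-stimulated genes, went the other way, with changes of 1.02 and 0.72 for R4 over R2 that passed.

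Among the regulatory factors and negative regulators, 1 of 11 was higher in R4 than in R2, near the 8.72% of all genes that were. The gene was USP18, the protease that removes ISG15 from its targets and dampens receptor signalling, at 9.32 CPM in R4 and 4.56 CPM in R2 (log2 fold change 1.00, adjusted p = 0.0284 in edgeR). Of the genes for ISG15 conjugation and removal, 4 of 6 were higher and 1 lower, where 8.72% of all genes were higher. UBA7, the enzyme that activates ISG15, averaged 21.1 CPM in R4, 21.3 CPM in R5 and 5.95 CPM in R2 (R4 over R2 1.83, adjusted p = 5.47e-05 in edgeR). HERC6, an ISG15 ligase in mice, was higher by 1.04, while HERC5, the human ligase, was lower (log2 fold change -0.55, adjusted p = 0.0413 in edgeR). UBA7 was thus high in both R4 and R5, whereas ISG15 itself was high in R4 alone.

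Of the nucleic acid sensors, 3 of 14 were higher and 0 lower in R4 than in R2, where 8.72% of all genes were higher. DHX58, a helicase that regulates RNA sensing, was among the 3, at 4.60 CPM in R4 and 1.73 CPM in R2. Of the other antiviral effectors, 16 of 41 were higher and 0 lower, beside the same 8.72%. ISG20, an exonuclease, averaged 9.42 CPM in R4, 1.23 CPM in R5 and 1.97 CPM in R2, so only R4 was high, as for ISG15. SAMD9 at 15.8, 11.3 and 3.78 CPM and OAS2 at 7.37, 4.68 and 2.22 CPM followed the graded order of the response genes other than ISG15. ISG20, SAMD9, DHX58, UBA7, HERC5, HERC6, IFNAR1, JAK1 and IRF9 were named after their values had been seen.

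The rule for naming list genes took those with the lowest p over the 4 groups, and none passed. In the effector list these were SP110, IFI27L2 and PML. IFI27L2, a relative of IFI27, had 3.03 to 4.60 CPM in CM_EE, below the 6.41 to 7.98 CPM of CM_EE_AI and the 6.30 to 7.82 CPM of CM_EE_IVF, with 3.73 to 7.11 CPM in NC. Its log2 fold change over CM_EE was 0.95 for CM_EE_AI and 0.92 for CM_EE_IVF, with unadjusted p of 0.0129 and 0.0147 in edgeR and an adjusted p of 1 over the 4 groups. SP110 and PML each rested on 1 library, at 108 CPM in NC R4 and at 108 CPM in CM_EE R2. The receptor list gave TYK2, STAT2 and PTPN11, the regulators USP18, SOCS1 and TRIM21, the sensors TLR3, TLR7 and TLR9, and the ISG15 list UBE2L6, USP18 and TRIM25.

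Markers of other cell types were summed beside these results, and their part in the R number differences was not tested. Endothelial markers summed to 710 to 1044 CPM in R4 and 736 to 1040 CPM in R5, against 1194 to 1483 CPM in R2, and 5 of 7 tested genes differed among the numbers. Fibroblast markers summed to 243 to 973, 323 to 399 and 618 to 998 CPM in R4, R5 and R2, with 5 of 6 differing, and smooth muscle and pericyte markers to 298 to 558, 167 to 236 and 278 to 388 CPM, with 4 of 5 differing. Luteal steroidogenic markers summed to 1283 to 5121, 1127 to 1719 and 1082 to 2075 CPM, with 6 of 7 differing. HSD3B1, CYP11A1, STAR, FDX1 and INHA averaged highest in R4. OXT was highest in R2 (37.5, 7.12 and 129 CPM in R4, R5 and R2) and LHCGR in R5 (125, 226 and 69.0 CPM). Most markers in these lists thus differed among the R numbers, where 26.7% of all genes did, though not all in the same direction.

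Leukocyte markers were summed in the same way, beside 26.7% of all genes that differed among the numbers. General leukocyte genes summed to 20.8 to 52.1, 39.6 to 55.9 and 29.4 to 47.0 CPM in R4, R5 and R2, with 0 of 4 differing, and T and NK cell genes to 3.50 to 5.45, 6.24 to 11.1 and 3.48 to 6.97 CPM, with 0 of 7. B cell genes summed to 0.954 to 2.44, 1.41 to 3.04 and 0.847 to 1.96 CPM, with 0 of 3, and MS4A1 and NKG7 were at 0 in 1 library each. Macrophage genes summed to 21.1 to 46.0, 23.8 to 27.3 and 19.9 to 25.4 CPM, with 1 of 6 differing. The ranges of R4, R5 and R2 overlapped for the macrophage sums, whose means were 29.8, 25.2 and 22.8 CPM in R4, R5 and R2, and the T, NK and B cell sums reached at most 11.1 CPM.

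Of the remaining lists, that for plasmacytoid dendritic cells, known as makers of type I interferon, was carried by TCF4, which other cells also express. It summed to 472 to 851, 397 to 537 and 1253 to 2064 CPM in R4, R5 and R2, with 2 of 3 genes differing, where 26.7% of all genes did. Red cell genes summed to 2.38 to 4.25 and 2.98 to 3.47 CPM in R4 and R5, against 17.1 to 30.7 CPM in R2, with 1 of 3 differing. HBA alone carried the sum, at 1.12, 0.968 and 21.1 CPM in R4, R5 and R2. In the same order HBB had 1.33, 1.01 and 0.360 CPM, lowest in R2, and ALAS2 had 0.519, 1.22 and 0.952 CPM. Endometrial epithelial markers summed to 46.1 to 205, 19.3 to 33.8 and 39.3 to 54.1 CPM, with EPCAM at 0 in 4 libraries. Of the genes tested, 4 of 7 differed among the numbers, where 26.7% of all genes did. MSX1, CDH1, KRT8, KRT18 and SPP1 averaged highest in R4, while FOXA2 and EPCAM averaged lowest there. SPP1 (57.3 CPM) and KRT8 (42.5 CPM) had the highest R4 means. In the groups, these endometrial sums averaged 68.5 ± 68.5 CPM in CM_EE, 90.3 ± 99.8 CPM in CM_EE_AI and 63.4 ± 44.2 CPM in CM_EE_IVF, against 44.7 ± 10.2 CPM in NC. Only in R4 did the media exceed NC, at 147, 205 and 112 CPM in the same order against 46.1 CPM. NC was the highest of the 4 groups in R5 (33.8 CPM) and in R2 (54.1 CPM).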

How the data were processed

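The authors deposited whole read counts per gene for 12 corpus luteum libraries, and 0 columns of other samples were used. Those of the 3 conditioned media were treated as deposited expected counts, and as all were whole, rounding changed none of them. Reads were trimmed, aligned and counted with Trim Galore and cutadapt, STAR and featureCounts, and DESeq2 was used, per the submitters' processing notes. No version, genome build, library kit or strand setting for the corpus luteum is given in those sources. The endometrial table names genes by identifiers that could not be paired with the 10 genes, and it was not used here.

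Genes were filtered with filterByExpr by group, scaled by TMM and tested with edgeR 4.0.16 (quasi-likelihood F test, R 4.3.3), all 12 libraries in 1 model, with Benjamini-Hochberg adjustment over 18939 genes and a threshold of 0.05. R numbers were tested with group in the model. The pipeline was tested on simulated data. DESeq2 1.42.0 was an alternative, as were other size factors, no filter, subsets and leaving out each library. Correlations used log2 CPM with a prior count of 2. None of 12 within-group pairs of libraries was identical (0 of 12).

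The 10 genes, the lists and the R number comparisons were chosen with earlier results of these data known. Named genes are the 10, up to 3 per list with the lowest p over the 4 groups, and 5 inside and 5 outside the lists by correlation. RIGI and STING1 were looked up under their older symbols, and BST2, IFIT1, IFIT3, IFITM2, GBP2, CXCL10 and CXCL11 were not analysed here.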

Additional observations from a re-analysis of the deposited data

Results flagged for a closer look

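OAS1X in R2 of CM_EE_AI, at 6.55 CPM, stood apart from the R2 libraries of the other 3 groups, which lay at 4.80 to 4.93 CPM. Its gap to the nearest of them was 0.926 of the whole range of the R2 libraries. It was the only such case among 30 sets of 4 libraries, 10 genes in each of 3 R numbers, and chance flags about 1 in 20 sets.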

How the results depend on the processing

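The counts of called genes stayed at 0 of 10 for all group comparisons in every alternative run. The medians of the 10 genes changed sign when single libraries were left out, between -0.68 and 0.42 for CM_EE over NC, -0.41 and 0.75 for CM_EE_AI over NC, -0.53 and 0.61 for CM_EE_IVF over NC, -0.31 and 0.88 for CM_EE_AI over CM_EE, -0.47 and 0.75 for CM_EE_IVF over CM_EE and -0.82 and 0.49 for CM_EE_IVF over CM_EE_AI. In those runs the R numbers no longer balanced between groups. For the R numbers, leaving out 1 library gave 7 to 9 genes among all numbers, 7 to 9 for R4 over R2, 6 to 8 for R5 over R2 and 2 to 7 for R4 over R5. The 2 came without CM_EE_AI replicate 5 and the 3 without CM_EE_IVF replicate 5, and the cause was not tested. Of 19046 to 19101 genes, 3374 to 5141, 1391 to 2526, 2441 to 4347 and 1214 to 2949 were called in the same order. DESeq2 gave 10, 10, 8 and 6, where it called 6020, 3514, 4489 and 3585 of all 18939 genes. DESeq2's size factors shifted the median of all genes for R5 over R2 by -0.11. Of single-gene values for R numbers, 449 kept their side of the threshold, 60 lost a call and 1 gained one. Among values with a call, 0 changed direction. Values without a call could change sign, as ISG15 did for R5 over R2, at -0.33 to 0.03. A replicate block on the R number left 0 of 10 genes called in each group comparison, where 0 of all genes were called. An unadjusted p under 0.05 was reached by IFI44L in CM_EE over NC (log2 fold change -0.59), where 1.57% of all genes reached it. It was also reached by IFI44 in CM_EE_AI over CM_EE (0.56), where 4.57% of all genes did. Libraries with the same number deviated together, with correlations of 0.08 to 0.66 (median 0.36). Those with different numbers had -0.49 to 0.20 (median -0.18). As 3 of 18 were under 0.1, the main model did not take the numbers as pairs, though 7 of 12 libraries were closest to their own number. The differences between R numbers thus stayed in the spread of the group comparisons. The biological coefficient of variation, a relative spread between libraries, was 0.519 without the R number in the model and 0.389 with it. The endometrial alternatives were not run. MX2, with as few as 21 counts in a library, was limited most by depth.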
